A study of Mus musculus with 6 samples.

Results

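The HSP70 chaperone family was followed through its 10 listed cytosolic, divergent and mitochondrial members, Hspa1a, Hspa1b, Hspa1l, Hspa2, Hspa4, Hspa4l, Hspa8, Hspa9, Hspa13 and Hspa14. The members were taken by gene symbol, and the family was chosen by the counts of its genes in LIP and NL libraries. All 10 were found among the 16403 genes of the deposited table. The data are bulk mRNA sequencing of LSK cells, the lineage-negative, Sca-1-positive and Kit-positive cells of mouse bone marrow, among which are the blood stem cells and their first progeny. There were 3 libraries from C57BL/6 mice with ligature-induced periodontitis (LIP), in which a ligature around a tooth provokes gum inflammation and bone loss, and 3 from unligated C57BL/6 mice (NL). Marrow was taken on day 7, and the sorted cells of 3 mice were pooled for each library. The sources used here give neither the age of the mice nor the dates of the sorts or RNA extractions.

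HSP70 proteins bind exposed hydrophobic stretches of unfolded or newly made proteins and release them in a cycle driven by ATP. J-domain co-chaperones bring the client and stimulate ATP hydrolysis, and nucleotide exchange factors, among them the large Hsp110-type relatives, reopen the cycle. Most cells make a constitutive cytosolic form, Hsc70, at all times and add the inducible form, Hsp70, when heat shock factor 1 (HSF1) is activated by heat or other protein-damaging stress. In human erythroblasts Hsp70 is also known for protecting the erythroid factor GATA1 from caspase cleavage.

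Hspa1a and Hspa1b, which both encode the inducible Hsp70, are separate genes with nearly the same sequence. They lie on chromosome 17 of GRCm38, Hspa1b from 34956429 to 34959238 and Hspa1a from 34969359 to 34972156, next to Hspa1l from 34972703 to 34979228. Their coding sequences were identical at 1915 of 1926 aligned positions (99.4%), and 1395 of the 2868 windows of 100 bases in the Hspa1a transcript (48.6%) occurred unchanged in another member. For Hspa1b these were 1350 of 2704 windows (49.9%), and for Hspa1l 134 of 2373 (5.65%), while the other 7 members shared none. Hspa1a, Hspa1b and Hspa1l were also the 3 members without whole-number counts in every library. A single read of 100 bases from a shared stretch cannot be assigned to 1 copy by its sequence. Fragments were read from both ends, and the other end may settle some of them, which these single windows do not count. The split between Hspa1a and Hspa1b is thus uncertain to an extent that was not measured, and their sum is given beside each of them.

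The 250 bases before the start of the inducible pair are shown because both genes had far lower levels in LIP, and those of Hspa1l because it lies beside them without such a difference. Sequences are from RefSeq on GRCm38.p6, 5′ to 3′ on the gene's own strand, and 7 of the 10 members had an entry. Capitals mark the letters GAANNTTC or TTCNNGAA, the inverted GAA pairs that form the core of a heat shock element, searched on both strands (each motif reads the same on both).
Hspa1a, chr17:34972157-34972406, minus strand: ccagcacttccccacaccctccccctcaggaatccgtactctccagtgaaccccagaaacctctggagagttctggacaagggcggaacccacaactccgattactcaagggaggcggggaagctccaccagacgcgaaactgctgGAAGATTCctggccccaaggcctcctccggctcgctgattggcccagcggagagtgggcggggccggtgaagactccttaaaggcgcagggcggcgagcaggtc
Hspa1b, chr17:34959239-34959488, minus strand: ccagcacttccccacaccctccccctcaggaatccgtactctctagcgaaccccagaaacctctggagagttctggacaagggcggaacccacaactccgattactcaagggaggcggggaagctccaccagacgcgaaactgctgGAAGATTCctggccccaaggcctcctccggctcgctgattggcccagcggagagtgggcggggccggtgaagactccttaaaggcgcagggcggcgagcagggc
Hspa1l, chr17:34972453-34972702, plus strand: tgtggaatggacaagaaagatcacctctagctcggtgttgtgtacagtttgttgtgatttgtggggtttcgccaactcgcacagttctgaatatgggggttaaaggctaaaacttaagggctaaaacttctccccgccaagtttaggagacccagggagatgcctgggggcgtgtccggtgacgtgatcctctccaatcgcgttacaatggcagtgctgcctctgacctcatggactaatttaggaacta

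The upstream windows of Hspa1a and Hspa1b were identical at 247 of 250 positions. They differed by C44T, T47C and T249G, where the Hspa1a base comes first and positions count from 1 at the 5′ end of the window. Both held 1 inverted GAA pair, from 104 to 97 bases before the start. The windows of Hspa1l, Hspa2, Hspa4, Hspa4l and Hspa14 held none. Only the first listed start of each member was read, and any other starts were not searched. The letters GAANNTTC were present in 6.69% and TTCNNGAA in 7.17% of the 32851 upstream windows in the RefSeq table, and either of them in 12.8%. Both windows of the inducible pair also held 1 CCAAT box (CCAAT on either strand, in 33.8% of all windows), as did those of Hspa1l and Hspa2. These matches are letters in a window, and binding was not measured.

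Library totals lay between 17780810 and 18841090 counts, and 12564 genes had enough counts to be tested, all 10 members among them. Levels are CPM (counts relative to the library total, TMM-scaled) unless TPM is named. The deposited TPM is scaled to transcript length and was used without TMM factors. A floor of 3 counts came to between 0.159 and 0.169 CPM. The sorted cells expressed the LSK markers Kit, Cd34, Flt3, Ly6a, Procr, Slamf1, Mecom and Hlf, whose summed level was 2495 to 2538 CPM in LIP libraries and 2431 to 2454 CPM in NL libraries. Of these 8 genes 1 was called, namely Kit (named after its value was seen), which encodes a surface protein used for the sort. It rose by 0.18 ± 0.03 (edgeR adjusted p = 8.16e-06), with 576 to 592 CPM in LIP and 508 to 515 CPM in NL. Across all tested genes 29.9% were called at an adjusted p below 0.05 (edgeR's quasi-likelihood test, Benjamini-Hochberg), 1984 lower and 1776 higher in LIP, or 1301 lower and 2756 higher with total counts alone as the scale. P-values measure the spread between these pooled libraries. Since the family was picked with this comparison known, its own differences are a description, and nothing is read from its share of calls.

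Of the 10 members 7 were called lower in LIP and 0 higher by edgeR's genome-wide threshold (also 0 higher at an unadjusted p below 0.05 and 0 with DESeq2), which 15.8% of all tested genes passed in the lower direction and 14.1% in the higher one. The members called lower were Hspa1a, Hspa1b, Hspa2, Hspa4l, Hspa8, Hspa13 and Hspa14. The median log2 fold change of LIP over NL was -0.26 over the 10 members and -0.14 over the 8 members other than Hspa1a and Hspa1b, against 0.00 (-0.0007208) over all tested genes. The inducible pair stood about 5 log2 units below NL, and the other 8 members lay between -0.41 and 0.21. In these bulk libraries fewer cells expressing a gene and less of its mRNA per cell cannot be told apart.

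**Figure D1:**
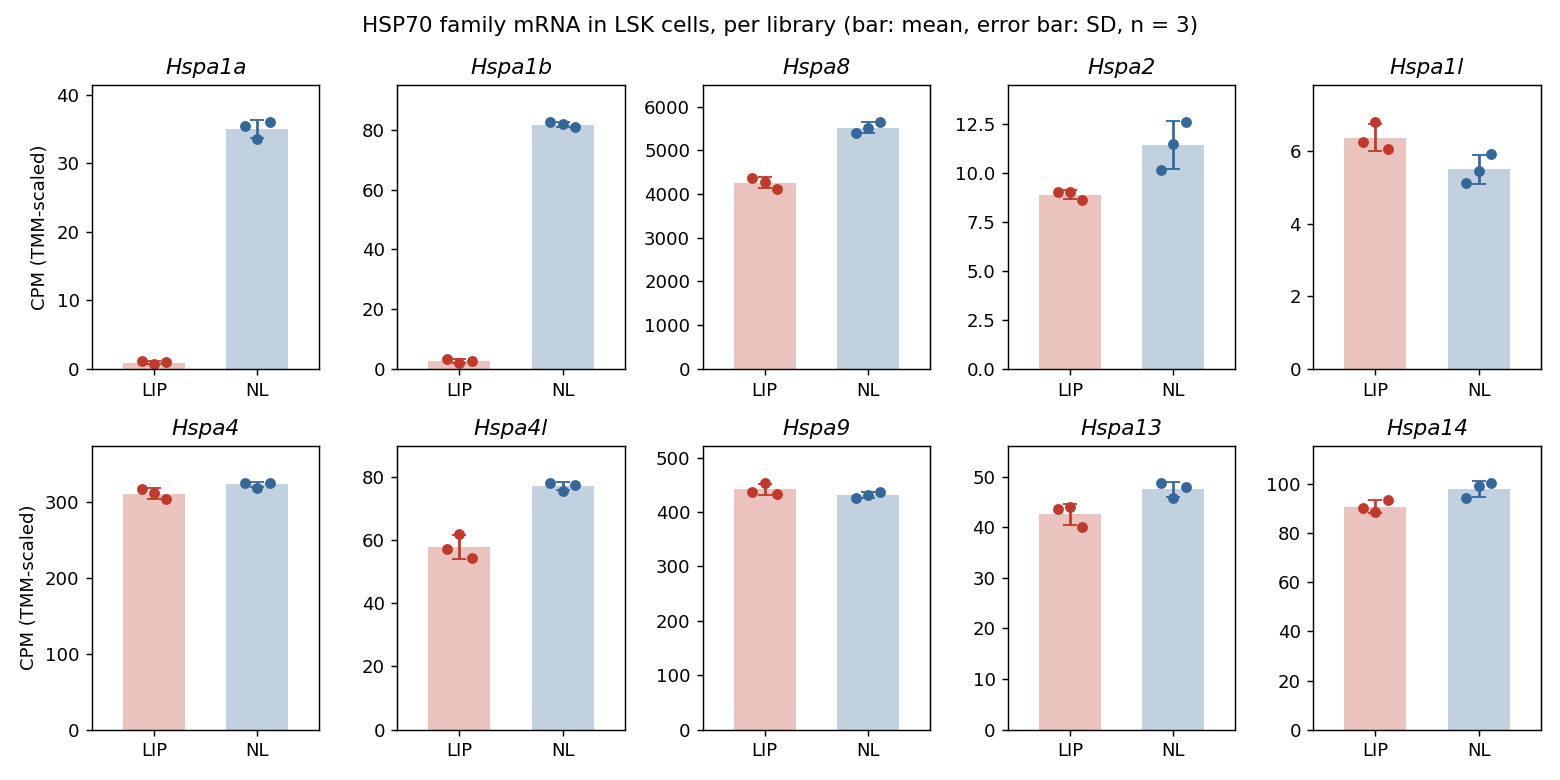
CPM of each member in every library, with LIP left of NL in each panel; points are libraries, bars are means and error bars are SD (n = 3). Hspa1a and Hspa1b are close to the axis in the 3 LIP libraries, while the largest gap among the other members of high abundance is in Hspa8, at 4120 to 4371 CPM in LIP and 5402 to 5646 CPM in NL.

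The inducible genes gave the widest separation between the groups. Hspa1a had 1.11, 0.680 and 0.993 CPM in the 3 LIP libraries, against 35.4, 33.6 and 36.0 CPM in the 3 NL libraries. Hspa1b had 3.21, 2.04 and 2.51 CPM in LIP, against 82.6, 81.8 and 80.8 CPM in NL. All LIP libraries were low and all NL libraries high, with no library in between. Summed, the pair had 4.30, 2.75 and 3.50 CPM in LIP, against 118, 115 and 117 CPM in NL, a log2 fold change of -5.05 ± 0.07 (SE), 33.2-fold lower in LIP. Taken apart, the log2 fold changes were -5.24 ± 0.12 for Hspa1a and -4.99 ± 0.08 for Hspa1b. These SE values are from edgeR, and that of the sum was larger with DESeq2 (0.114) and limma-voom (0.119). No tested gene outside the family had a log2 fold change below -1.47.

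Low counts limit the LIP values of the pair. The summed estimated counts were 77.7, 52.6 and 67.0 in LIP libraries, against 2073, 2034 and 2053 in NL libraries, and Hspa1a alone had 13.3 to 19.9 counts in LIP. All of these lay above the floor of 3 counts, so the transcripts were detected in every LIP library. The summed CPM varied between libraries with a coefficient of variation of 22.0% in LIP and 1.12% in NL, while counting error alone would give 12.3% in LIP and 2.21% in NL. The estimated share of Hspa1a in the summed count was 25.7%, 25.2% and 27.8% in LIP and 30.0%, 29.1% and 30.8% in NL. The LIP shares were all below the NL shares, by 3.74 percentage points on average, in reads whose division between the copies rests on the authors' counting. They rest on the low summed LIP counts of 77.7, 52.6 and 67.0. The counting error of the shares was not computed, and the gap was not tested.

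Hspa8 encodes Hsc70, the constitutive cytosolic chaperone, and was the most abundant member by far. It had 4371, 4274 and 4120 CPM in LIP, against 5402, 5500 and 5646 CPM in NL. Every LIP library was below every NL library, which 21% of all tested genes also showed, and the log2 fold change was -0.37 ± 0.04, a level 22.9% lower in LIP. In TPM, Hspa8 stood at rank 37 of 16403 genes in LIP and rank 33 in NL.

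The inducible pair was also lower relative to Hspa8. For every 1000 TPM of Hspa8 there were 0.731, 0.479 and 0.631 TPM of Hspa1a plus Hspa1b in LIP, against 16.2, 15.6 and 15.4 TPM in NL. The pair made up 0.0538% ± 0.0112 of the family's summed TPM in LIP and 1.39% ± 0.0368 in NL (SD, n = 3 each). The groups did not overlap in either measure, so the inducible transcripts were lower in proportion to the constitutive one as well as in level. Hspa8 itself made up 87.9%, 87.5% and 87.4% of the family's summed TPM in LIP and 88.6%, 88.7% and 88.8% in NL.

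Hspa2 and Hspa1l were scarce. Hspa2, best known for its part in male meiosis, had 9.01, 8.99 and 8.62 CPM in LIP and 10.1, 11.5 and 12.6 CPM in NL, a log2 fold change of -0.36 ± 0.10. Its LIP libraries were close together and all below the more scattered NL libraries. Hspa1l, a testis-enriched relative that shares the cluster with Hspa1a, had 6.25, 6.80 and 6.06 CPM in LIP and 5.12, 5.45 and 5.92 CPM in NL. Its log2 fold change of 0.21 ± 0.12 did not pass the genome-wide threshold, and the lowest LIP library exceeded the highest NL library by little, a separation that 19.9% of all tested genes also showed.

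**Figure D2:**
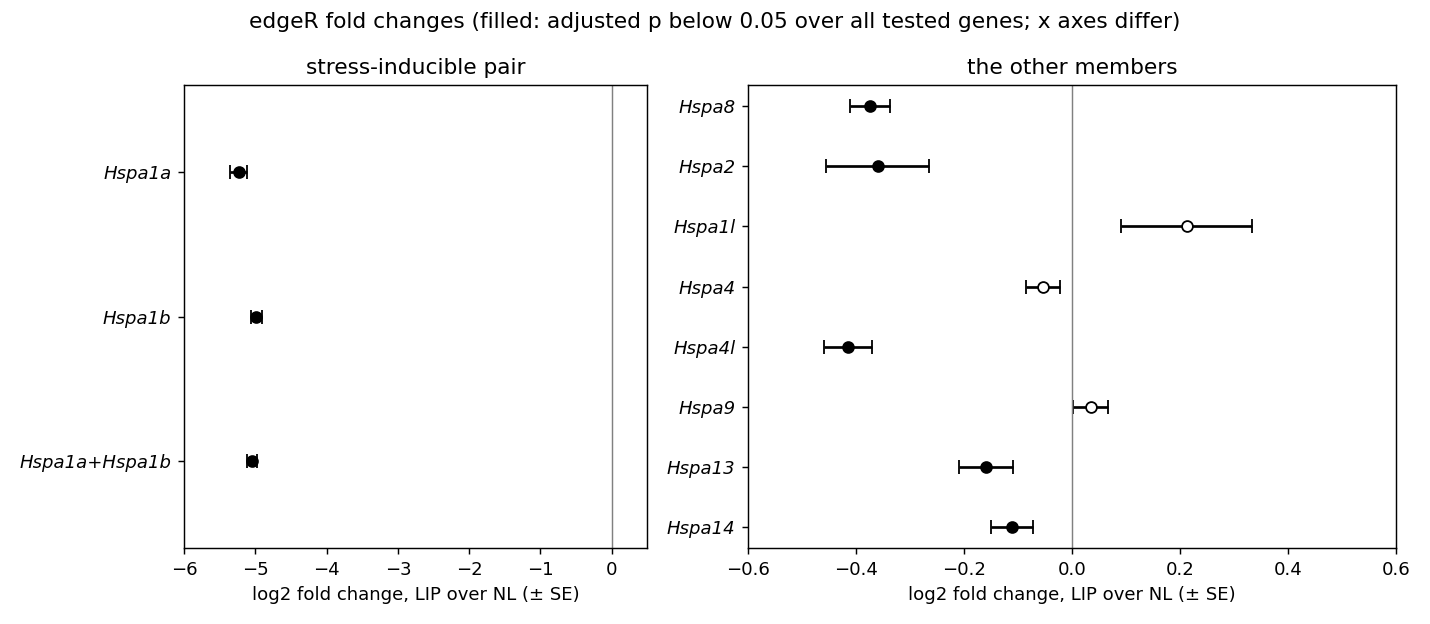
Log2 fold changes of LIP over NL from the genome-wide edgeR fit, with SE; filled points passed an adjusted p of 0.05 over all tested genes. The left panel, on its own axis, holds Hspa1a at -5.24, Hspa1b at -4.99 and their sum at -5.05; in the right panel Hspa4l, Hspa8 and Hspa2 lie between -0.41 and -0.36, and Hspa4, Hspa9 and Hspa1l are open.

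The 2 Hsp110-type members differed in their values. These proteins act as exchange factors for HSP70 and hold unfolded clients. Hspa4l had 57.2, 61.8 and 54.4 CPM in LIP and 78.2, 75.6 and 77.4 CPM in NL, a log2 fold change of -0.41 ± 0.04, the most negative outside the inducible pair. Hspa4, the more abundant relative, had 318, 313 and 304 CPM in LIP and 325, 319 and 326 CPM in NL, a log2 fold change of -0.05 ± 0.03 that did not pass the threshold. Their coding sequences were identical at 66.8% of aligned positions. The difference between these 2 fold changes was not tested.

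Hspa9 encodes mortalin, the mitochondrial HSP70 that helps pull proteins into the matrix. It had 436, 454 and 434 CPM in LIP and 425, 431 and 437 CPM in NL, with overlapping groups and a log2 fold change of 0.03 ± 0.03. In TPM the same gene had 260, 280 and 261 in LIP and 236, 237 and 242 in NL, so that the groups were apart on that scale. The share of all genes with such a separation in TPM was not computed, so nothing is read from it.

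Hspa13 (Stch), a microsome-associated relative with a shortened substrate-binding part, had 43.5, 44.0 and 40.1 CPM in LIP and 48.8, 45.9 and 47.9 CPM in NL, a log2 fold change of -0.16 ± 0.05. Hspa14, a member known in human cells as a ribosome-associated partner of the J-domain protein DNAJC2, had 90.1, 88.6 and 93.7 CPM in LIP and 94.5, 99.2 and 101 CPM in NL, a log2 fold change of -0.11 ± 0.04. In both genes the LIP libraries were below the NL libraries in CPM by small margins. Hspa13 no longer passed the threshold without LIP replicate 3 (-0.12) or NL replicate 1 (-0.14). Hspa14 no longer passed without LIP replicate 1 (-0.11), LIP replicate 2 (-0.09), NL replicate 2 (-0.10) or NL replicate 3 (-0.09). Neither gene passed it with DESeq2 or with total counts alone.

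On the log2(TPM + 1) scale Hspa4 stood at 0.07 and Hspa14 at 0.0085, so both signs turned, while Hspa13 was at -0.03. In TPM the Hspa4 values were 123, 125 and 119 in LIP and 117, 114 and 117 in NL. Every member stood higher on the log2(TPM + 1) scale than in the fit. Hspa8 went from -0.37 to -0.25, Hspa4l from -0.41 to -0.28 and Hspa9 from 0.03 to 0.16. The shift was thus not particular to the genes whose sign turned. The small differences in Hspa4, Hspa9, Hspa13 and Hspa14 differed between the scales, whereas Hspa1a, Hspa1b, Hspa2, Hspa4l and Hspa8 were lower in LIP in TPM too.

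The order of the members by TPM was the same in both groups for the 4 most abundant and changed below them. In LIP the order was Hspa8 (3770 ± 123), Hspa9 (267 ± 11.3), Hspa4 (122 ± 3.31), Hspa14 (90.1 ± 1.66), Hspa4l (20.7 ± 1.21), Hspa13 (19.2 ± 1.22), Hspa2 (6.42 ± 0.217), Hspa1l (4.90 ± 0.382), Hspa1b (1.70 ± 0.348) and Hspa1a (0.610 ± 0.128). In NL it was Hspa8 (4472 ± 93.6), Hspa9 (238 ± 2.94), Hspa4 (116 ± 1.75), Hspa14 (89.6 ± 2.44), Hspa1b (49.1 ± 0.673), Hspa4l (25.4 ± 0.344), Hspa1a (21.1 ± 0.843), Hspa13 (19.6 ± 0.787), Hspa2 (7.55 ± 0.800) and Hspa1l (3.87 ± 0.284), as mean TPM ± SD (n = 3). The inducible genes were thus 9th and 10th in LIP and 5th and 7th in NL. In 2 neighbouring pairs the values overlapped between libraries, Hspa4l and Hspa13 in LIP, and Hspa1a and Hspa13 in NL.

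The family's summed level was 4342, 4414 and 4152 TPM in LIP, against 4973, 4997 and 5157 TPM in NL. The means differed by 740 TPM, of which Hspa8 accounted for 702 TPM, Hspa1b for 47.4 TPM and Hspa1a for 20.5 TPM. The remaining 7 members summed to 522, 549 and 520 TPM in LIP and 496, 497 and 508 TPM in NL. Their sum was thus slightly higher in LIP on the TPM scale only. In CPM its direction was reversed, with Hspa2, Hspa4, Hspa4l, Hspa13 and Hspa14 lower in LIP and Hspa1l and Hspa9 higher. Hspa9 made up 6.20% of the family total in LIP, against 4.73% in NL, and Hspa4 2.84% in LIP, against 2.30% in NL. In TPM, the largest part of the lower family total lay in the constitutive gene, and by fold it lay in the inducible pair.

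**Figure D3:**
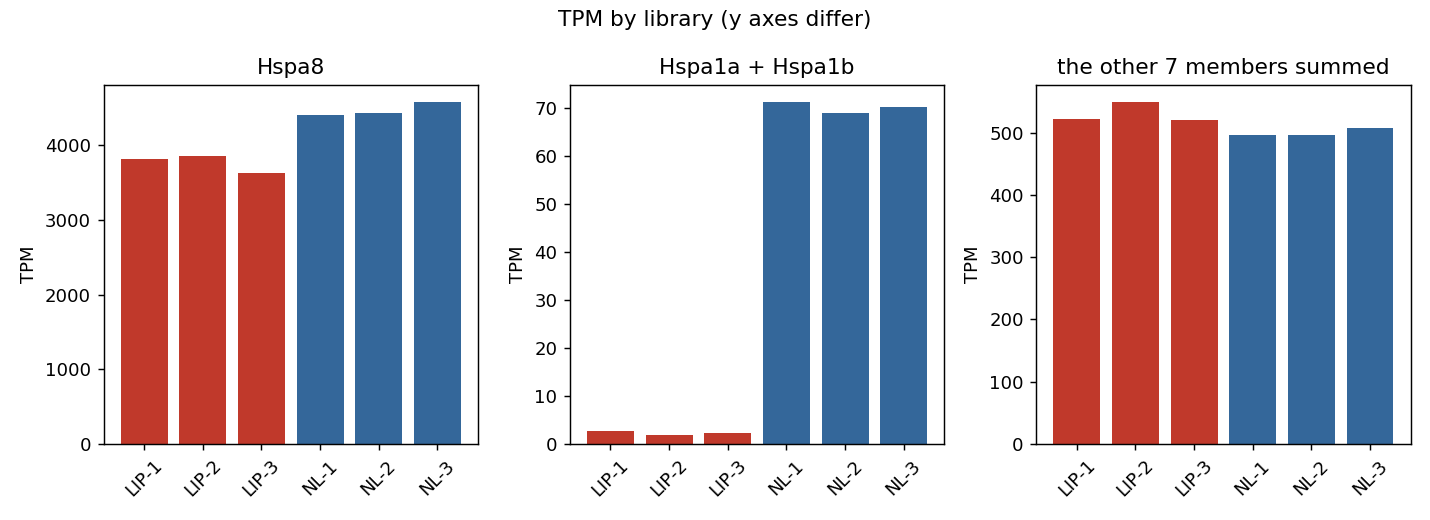
TPM in each library for Hspa8 (left), Hspa1a plus Hspa1b (middle) and the other 7 members summed (right), with LIP bars in red left of NL bars in blue; the y axes differ. The inducible pair sits between 1.85 and 2.79 TPM in LIP and between 69.0 and 71.3 TPM in NL, while the other 7 members together are between 520 and 549 TPM in LIP and between 496 and 508 TPM in NL.

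No gene around the inducible pair had a difference of that size. Of the 10 nearest genes of the table, 5 on each side of the cluster, 8 were tested, with log2 fold changes from -0.25 to 1.09. By edgeR's quasi-likelihood test 0 were called lower (0 at an unadjusted p below 0.05 and 0 with DESeq2) and 3 were called higher, where 15.8% of all tested genes were called lower and 14.1% higher. With 8 genes tested, little is read from a count of 0. Those called higher were Vars, a valyl-tRNA synthetase gene, at 0.11 ± 0.03 (adjusted p = 0.00567), D17H6S56E-5 at 0.13 ± 0.03 (adjusted p = 0.00113) and Vwa7 at 1.09 ± 0.34 (adjusted p = 0.011), which overlaps the next gene, so that reads of both may mix. Hspa1l, whose start lies nearest to that of Hspa1a, was likewise not lower in LIP.

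**Figure D4:**
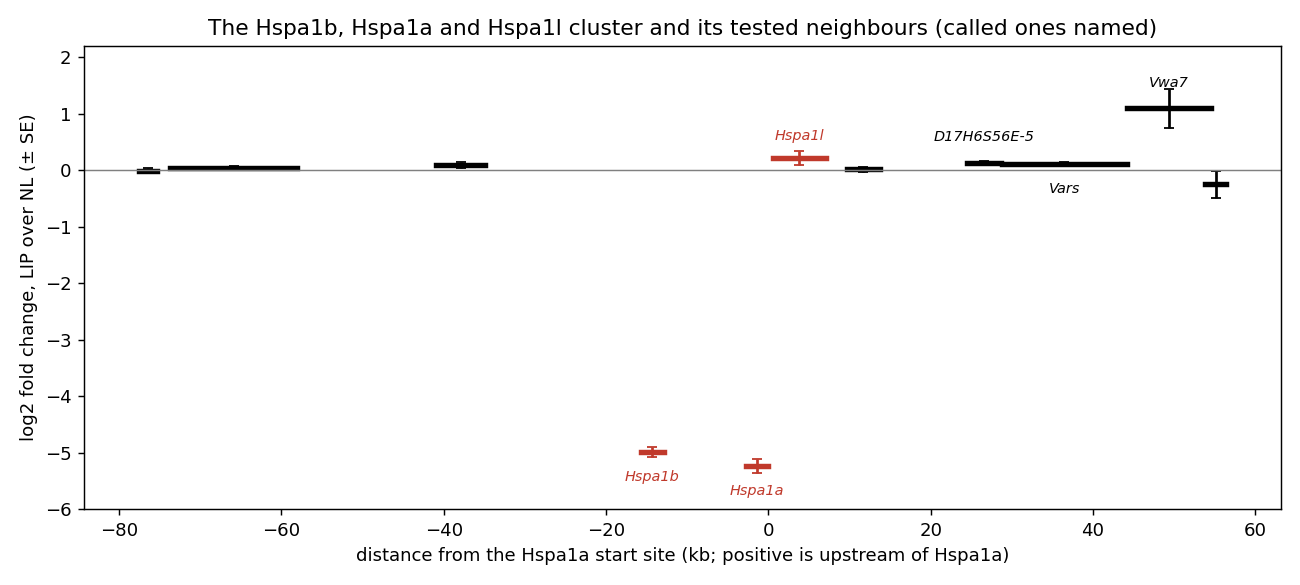
Log2 fold change of LIP over NL (± SE) against distance in kb from the start site of Hspa1a for the 3 members of the cluster (red) and the tested neighbouring genes (black); horizontal lines span each gene. Hspa1b and Hspa1a lie near -5, whereas the neighbours range from -0.25 to 1.09.

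The proteins that work with HSP70 gave a smaller difference in the same libraries. Of 55 genes in 5 lists of chaperone partners, 52 were tested, and 21 fell and 5 rose in LIP, with a median log2 fold change of -0.08 against 0.00 (-0.0007208) over all tested genes. Over all tested genes 15.8% were called lower and 14.1% higher. The lists were chosen with earlier results of these data known, so the partners' counts are a description. Nothing is read from their share of calls. Of the genes that fell, 12 belong to the other lists and 9 of 19 to the J-domain co-chaperones. The count of 21 that fell was 15 with total counts alone. The count of 5 that rose was 2 without NL replicate 1, 3 without NL replicate 3 and 8 with total counts alone. Adjusted p-values below are from edgeR's quasi-likelihood test over all tested genes.

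Among the J-domain co-chaperones, Dnajb1, the main heat-inducible partner of Hsp70, had 100, 102 and 98.3 CPM in LIP and 159, 163 and 162 CPM in NL. Its log2 fold change was -0.69 ± 0.04 (adjusted p = 8.52e-24). Dnaja1 fell by 0.66 ± 0.03 (adjusted p = 2.22e-24) and Dnajb4 by 0.48 ± 0.06 (adjusted p = 4.91e-09). Dnajc19, a co-chaperone of mitochondrial import, fell by 0.37 ± 0.06 but lacked whole counts. The 2 members that rose, by at most 0.16, were Dnajb12 and Dnajc13, named after their values were seen.

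Of 12 nucleotide exchange factors 4 fell and 2 rose. Hsph1, the stress-inducible Hsp110 gene, had 135, 134 and 126 CPM in LIP and 222, 219 and 218 CPM in NL, and fell by 0.74 ± 0.03 (adjusted p = 7.97e-26). Its constitutive relative Hspa4 stood at -0.05 in the same libraries. Bag3, another HSF1 target, fell by 0.41 ± 0.07 and Bag2 by 0.23 ± 0.06, while Hyou1, the Hsp110-type protein of the endoplasmic reticulum, rose by 0.15 ± 0.03 (adjusted p = 2.06e-04).

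Of 13 HSP90 genes and adaptors 5 fell and 1 rose. Chordc1 fell by 0.59 ± 0.04, Hsp90aa1, the inducible HSP90, by 0.28 ± 0.04, the co-chaperone gene Ptges3 by 0.18 ± 0.03 and Stip1, which bridges HSP70 and HSP90, by 0.17 ± 0.03. Among the other heat-inducible chaperones 2 of 5 tested members fell, the mitochondrial chaperonin genes Hspe1 by 0.33 ± 0.04 and Hspd1 by 0.13 ± 0.04. The heat shock factors themselves gave little: of 3 tested list members Hsbp1, an HSF1-binding protein gene, fell by 0.19 ± 0.04, and Hsf1, chosen after its value was seen, had 58.1, 59.3 and 68.1 CPM in LIP and 57.4, 59.4 and 53.2 CPM in NL, with an adjusted p of 0.0645 by edgeR.

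**Figure D5:**
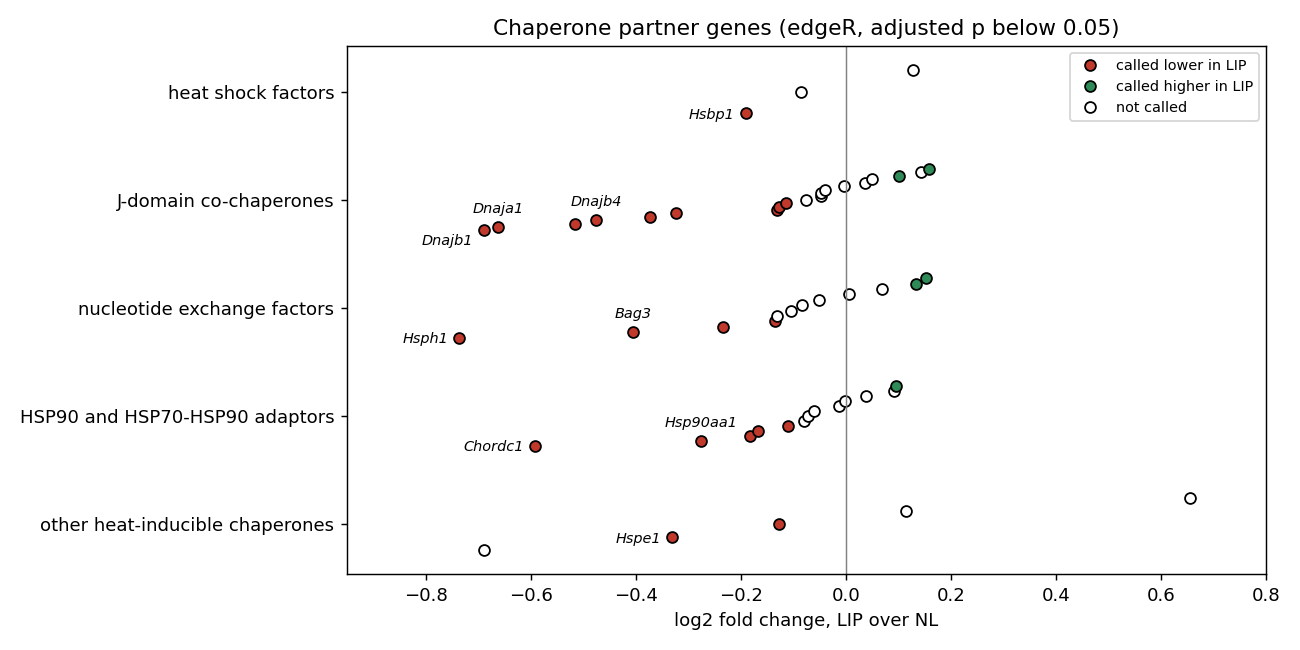
Log2 fold changes of LIP over NL for the 52 tested chaperone partner genes, 1 point per gene, in 5 lists; red points were called lower, green points higher and open points neither. Hsph1 at -0.74, Dnajb1 at -0.69 and Dnaja1 at -0.66 are the most negative called points, all well short of Hspa1a and Hspa1b.

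Partners with a heat shock element core before their start were described by count. Of the 18 partner genes called lower with a listed upstream window, 7 held GAANNTTC or TTCNNGAA, against 0 of 4 called higher and 3 of 19 not called. Here, unlike for the members, a gene counted if any of its listed windows held the letters. Hsph1, Dnaja1, Dnajb4, Hspe1 and Hspd1 were among those 7, and the last pair lie head to head, so that their windows are not independent. Dnajb1, Bag3, Hsp90aa1 and Chordc1, also called lower, were not among them. Each of these either lacked the letters or had no listed window. Over all tested genes with a window the letters were present in 12.3% of those called lower, 10.2% of those called higher and 12.6% of those not called.

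Members of the HSP70 fold outside the listed family were tested too. Hspa5 (BiP), the HSP70 of the endoplasmic reticulum, had 635, 622 and 609 CPM in LIP and 697, 702 and 685 CPM in NL and fell by 0.16 ± 0.03 (edgeR adjusted p = 9.98e-05). Hspa12b, an atypical endothelial-enriched relative, fell by 0.50 ± 0.10 (edgeR adjusted p = 4.39e-05). Hspa12a had at most 4 counts in a library and was not tested.

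The 5 genes whose log2 CPM followed the summed Hspa1a and Hspa1b most closely over the 6 libraries were Jun (Pearson r = 0.999), Dynll1 (0.996), Dnajb1 (0.995), Hsph1 (0.993) and Dnaja1 (0.990). They were taken from 111 genes outside the family with a mean log2 CPM of at least 1 and a fold of at least 1.5. The libraries form 2 separate groups, so these coefficients describe mainly how evenly each gene separated them. Their own log2 fold changes lay between -0.76 in Jun and -0.66 in Dnaja1. The list holds 3 HSP70 partners together with an immediate-early transcription factor (Jun) and a dynein light chain (Dynll1).

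Other marker lists moved in the same libraries. Their counts stand beside 14.1% of all tested genes called higher, 15.8% called lower and 19.9% with every LIP library above every NL library. No list's count was tested against those shares. Of 17 tested immediate-early genes 6 fell and 1 rose. Those that fell included Jun by 0.76 ± 0.03, Dusp1 by 0.37 ± 0.07, Jund by 0.31 ± 0.04 and Ier2 by 0.23 ± 0.04. The summed level of the list was 547 to 582 CPM in LIP and 682 to 701 CPM in NL. Jun alone, with a mean of 125 CPM in LIP and 211 CPM in NL, made up a large part of that gap. Of the tested genes in the list 10 were not called, and Klf4, named after its value was seen, rose by 0.35 ± 0.08. Neutrophil and monocyte markers rose in 8 of 10 tested members, with a summed level of 515 to 523 CPM in LIP and 373 to 387 CPM in NL, and B cell markers in 5 of 8, with 81.2 to 84.7 CPM in LIP and 64.7 to 68.1 CPM in NL. The lists of mature myeloid and lymphoid cells were thus higher in LIP, where the inducible pair was lower. Of the defining neutrophil genes, Ly6g had between 0 and 3 counts in every library. T and NK cell markers summed to 18.6 to 19.3 CPM in LIP and 14.1 to 15.4 CPM in NL, with 2 of 6 higher. Megakaryocyte and platelet markers summed to 180 to 189 CPM in LIP and 162 to 177 CPM in NL, with 3 of 6 higher. These sums did not overlap between the groups either. Erythroid markers overlapped, at 177 to 197 CPM in LIP and 185 to 192 CPM in NL, with 1 of 8 higher and 2 lower. Mast cell, basophil and eosinophil markers summed to 233 to 245 CPM in LIP and 212 to 213 CPM in NL, with 3 of 6 higher and 2 lower, and stromal and endothelial markers to 105 to 107 CPM in LIP and 92.5 to 96.1 CPM in NL, with 1 of 3 tested higher and 1 lower. The part of these cell type and immediate-early differences in the levels of the HSP70 family was not tested.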

How the data were processed

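Per the labels, polyA-selected mRNA was read from both ends (100 bp), with a mean of 45.0 M reads a library. The submitters' processing notes name STAR, HTSeq and GRCm38, without versions or roles. The authors deposited, per the file headers, estimated counts, FPKM and TPM for each library. The sources used here do not say which tool made the estimated counts. The 6 deposited columns of group means were not used.

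Between 86.3% and 86.8% of the estimated counts in a library were whole (within 1e-06). Because the planned test takes whole counts, they were rounded. Genes were filtered with filterByExpr (edgeR 4.0.16, R 4.3.3), scaled with TMM factors and tested for LIP against NL with the robust quasi-likelihood test, with Benjamini-Hochberg adjustment over 12564 genes and a threshold of 0.05. SE values derive from the test statistic. For the sum, the counts of Hspa1a and Hspa1b were added before fitting. The fit was tested on simulated data.

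The family, the lists and the tests were chosen with earlier results of these data known. Named genes are all members, up to 4 called genes with the smallest p per partner list and among immediate-early genes, other HSP70-fold genes, the 6 most similar profiles (1 is not reported here) and called neighbours of the cluster. Positions were matched by gene identifier to RefSeq (16293 genes). Transcript sequences are from GENCODE M21, aligned with Biopython 1.88. Alternatives used DESeq2 1.42.0 and limma 3.58.1 (voom).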

Additional observations from a re-analysis of the deposited data

How the results depend on the processing

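Over 14 other fits (DESeq2, limma-voom, other scaling, no filter on low counts, non-robust estimation, a replicate block, a transcript length offset with a lowess span of 0.3 and leaving out each library) between 5 and 7 members were called lower and none higher. The summed Hspa1a and Hspa1b ranged from -5.22 to -4.90 when 1 library was left out and stood at -4.44 on the log2(TPM + 1) scale. That scale adds 1 to LIP levels of only 1.85 to 2.79 TPM. Without the added 1 the mean TPM of the pair was 30.4-fold lower in LIP. Partner genes called lower ranged from 15 to 23. Those called higher were 2 with DESeq2, 8 with total counts alone and 2 to 5 with 1 library left out, against 5. All genes called numbered 3760, against 2484 with DESeq2 and 2987 to 3397 with 1 library left out. On the log2(TPM + 1) scale Hspa4 turned to 0.0723 and Hspa14 to 0.0085, where every member stood higher than in the fit. The cause was not tested. Of 140 tested alternative values for single members 128 kept direction and side of the threshold, 11 lost the call (4 in Hspa13 and 7 in Hspa14) and 1 gained it (Hspa4 at -0.08 with the length offset). Of the 10 differences in log2(TPM + 1), which have no test, 1 stayed within the spread between replicates, 7 moved by more than that spread with the same sign and those 2 reversed.

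Replicates with the same number in both groups did not deviate together (r of 0.0295, -0.0163 and -0.113). Those with different numbers gave r from -0.112 to 0.132. Whether the numbers mark a pairing cannot be told from this, since the dates of the sorts and extractions are not given. With a replicate block 7 members were called lower and 3729 genes in all. Depth limits the inducible pair in LIP, where counts were lowest. The floor of 3 counts and the counting variation given for the pair cover counting error only, while SD includes the spread between libraries. The SE values derive from the edgeR test statistic and may understate that spread for the pair. For the sum the SE was 0.072 by edgeR, against 0.114 with DESeq2 and 0.119 with limma-voom. For Hspa1a it was 0.119 by edgeR, against 0.216 with DESeq2 and 0.201 with limma-voom.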
